A study of Mus musculus with 6 samples.

Results

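The genes described here are 45 interferon response and antigen presentation genes, measured in gastrocnemius, the large calf muscle, of mice that lack the deubiquitinase Usp21 in muscle and of controls. They were taken by symbol from a table of 24532 genes, in which all 45 were found, and fall into 26 genes induced mainly by type I interferons, 13 induced mainly by interferon gamma and 6 of the major histocompatibility complex (MHC) class I pathway. Poly(A)-selected RNA was sequenced from whole muscle of 6 C57BL/6 mice aged 12 weeks. The 3 controls carried USP21 flox/flox alleles without Cre (their genotype field reads Litter), and the 3 knockouts carried Ckmm-Cre with USP21 flox/flox. Cre under the Ckmm (muscle creatine kinase) promoter directs the deletion to striated muscle, so vessels, fibroblasts and leukocytes in the same tissue keep the floxed alleles undeleted. Log2 fold changes are knockout minus control throughout.

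Type I interferons are secreted when cells sense viral nucleic acid. Both they and interferon gamma act on neighbouring cells through receptors that signal by Janus kinases and STAT factors. Type I interferons assemble STAT2 with IRF9 into a complex that binds the interferon-stimulated response element (ISRE), while interferon gamma acts through a STAT dimer on the gamma-activated site (GAS) and through IRF1, which in turn binds ISRE-like elements. The products restrict viral replication, and those of the gamma branch also raise peptide loading and display on MHC class I. Resting muscle fibres are known for low class I display, which rises in inflammatory myopathies. USP21 has been described as removing ubiquitin from RIG-I, the RNA sensor encoded by Ddx58, and from STING.

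Promoter sequence was available in the RefSeq table (GRCm38.p6, the assembly that mm10 names) for 33 of the 45 genes. The 250 bases before the start were searched on both strands for the ISRE core, written as GAAA, any 2 bases and GAAA, and for the GAS core, written as TTC, any 3 bases and GAA. The ISRE letters were found for 8 of 19 type I genes with an entry (42.1%), 8 of 10 gamma-type genes (80%) and 1 of 4 antigen presentation genes (25%), against 936 of 27025 genes in all (3.46%). The GAS letters were found for 3 of 19 (15.8%), 5 of 10 (50%) and 0 of 4, against 2197 of all genes (8.13%). Matches to these letters overlap in some promoters and are a description of sequence, not sites shown to be bound. The windows below are printed 5′ to 3′ on the gene's strand with matches in capitals. Isg15 and Ifit1 are shown as type I genes that stood higher in all knockout libraries, Gbp3 and Gbp7 as gamma-type neighbours whose levels differed in opposite directions, and B2m as the most abundant of the 45.
Isg15 (chr4:156200819-156201068, minus strand): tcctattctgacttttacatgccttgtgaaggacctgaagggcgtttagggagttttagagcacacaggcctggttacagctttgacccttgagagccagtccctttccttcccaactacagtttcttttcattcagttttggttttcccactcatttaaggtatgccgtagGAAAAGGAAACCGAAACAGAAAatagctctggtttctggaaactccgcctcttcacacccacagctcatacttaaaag
Ifit1 (chr19:34640639-34640888, plus strand): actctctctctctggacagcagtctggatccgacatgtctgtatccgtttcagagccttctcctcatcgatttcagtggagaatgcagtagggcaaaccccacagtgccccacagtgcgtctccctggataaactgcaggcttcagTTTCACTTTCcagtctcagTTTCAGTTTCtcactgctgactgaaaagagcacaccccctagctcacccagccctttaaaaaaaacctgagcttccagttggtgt
Gbp3 (chr3:142559794-142560043, plus strand): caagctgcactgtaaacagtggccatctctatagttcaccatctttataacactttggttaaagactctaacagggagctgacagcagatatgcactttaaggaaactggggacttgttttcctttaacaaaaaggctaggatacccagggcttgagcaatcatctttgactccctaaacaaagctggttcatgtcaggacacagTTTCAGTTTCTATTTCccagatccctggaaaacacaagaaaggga
Gbp7 (chr3:142530086-142530335, plus strand): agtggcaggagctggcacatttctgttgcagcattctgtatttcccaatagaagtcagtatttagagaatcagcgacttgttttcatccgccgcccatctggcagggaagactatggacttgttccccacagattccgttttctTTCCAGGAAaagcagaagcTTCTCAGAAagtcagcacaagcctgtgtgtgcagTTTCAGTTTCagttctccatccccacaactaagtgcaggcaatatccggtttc
B2m (chr2:122147437-122147686, plus strand): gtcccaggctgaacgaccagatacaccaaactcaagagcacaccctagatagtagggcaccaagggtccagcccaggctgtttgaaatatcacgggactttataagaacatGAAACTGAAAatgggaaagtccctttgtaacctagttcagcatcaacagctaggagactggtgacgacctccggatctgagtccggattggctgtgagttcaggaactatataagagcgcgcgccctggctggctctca
Isg15 held 3 overlapping matches to the ISRE letters, Ifit1 held 2 separate ones and Gbp3 held 2 that overlap. The table gives Gbp3 a second start, whose window (chr3:142560106-142560355) held 0 matches to either. Gbp7 held 1, with 2 matches to the GAS letters farther upstream, and B2m held 1. Of the other type I genes higher in all knockouts, Oasl1 and Xaf1 held 0 matches to either, and Oas2 and Parp14 had no entry. Ifit3, with a negative fold change (-0.13), held 2 matches to the ISRE letters. A link between matches and fold changes was not tested.

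Total counts ran from 48658436 to 67332846 per library. Of the 24532 genes, 14109 passed the filter on low counts and were tested with edgeR's quasi-likelihood test, and 8 of them (0.0567%) passed an adjusted p of 0.05. Usp21, on chromosome 1 (171281949 to 171287961), stood at 19.3, 19.3 and 19.2 CPM (counts scaled to a common library size) in controls against 9.08, 7.20 and 7.47 CPM in knockouts, so the libraries matched their labels (log2 fold change -1.28, SE 0.11, edgeR adjusted p = 0.0355). Fibre genes were abundant, with 9 fibre markers (among them Ckm and Acta1) summing to at least 176000 CPM in every library. Control 3 stood apart in fibre makeup, with the fast oxidative myosin Myh2 at 1193 CPM against 2182 to 4711 CPM in the other 5 libraries.

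Levels of the 45 genes spanned a wide range on the FPKM scale, which divides by gene length and library depth. The class I light chain B2m was highest, at a mean of 127 FPKM in controls and 143 FPKM in knockouts, followed by the class I heavy chains H2-D1 (63.8 and 64.5 FPKM) and H2-K1 (51.6 and 48.0 FPKM). The median over the 6 antigen presentation genes was 27.4 FPKM, against 3.44 FPKM over the 13 gamma-type genes and 1.31 FPKM over the 26 type I genes. Gamma-type genes ran from 0.240 FPKM (Cxcl10) to 6.56 FPKM (Irgm1), and type I genes from 0.0242 FPKM (Oas3) to 18.3 FPKM (Ifi27). Resting levels of the classical type I effectors were thus low, with Isg15, Ifit1, Oas2 and Rsad2 all between 0.931 and 1.84 FPKM in each group.

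**Figure D1:**
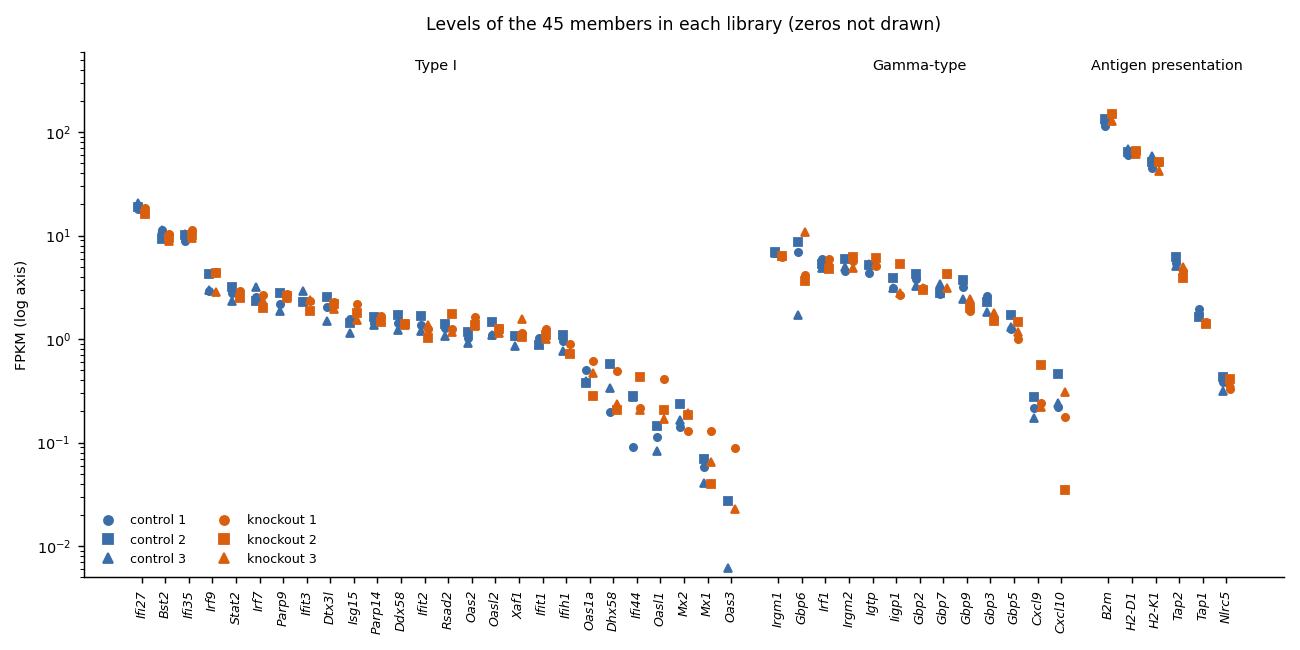
FPKM (log axis) of the 45 genes in each library, by class and in falling order of the mean; blue symbols are controls, orange symbols are knockouts, and values of 0 are not drawn. B2m, H2-D1 and H2-K1 lie above all type I genes, the highest of which is Ifi27 at 18.3 FPKM, and Oas3 lies lowest.

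No gene of the 45 passed the threshold in either direction. Of the 44 tested (Oas3 was too low), 0 were called higher and 0 lower at an edgeR adjusted p under 0.05, against 0.0354% and 0.0213% of all genes tested, and the smallest adjusted p was 0.305, for Oas2. DESeq2's Wald test called 0 of the 43 to which it gave an adjusted p, against 290 of 13829 genes in all (2.10%, with 1.52% higher and 0.578% lower). Below an unadjusted p of 0.05 lay 6 genes, 13.6% of the 44 against 11.6% of all genes tested, a share near the background. By direction these were 3 higher and 3 lower, where 6.56% and 5.07% of all genes lay. Values of the groups did not overlap for 11 of the 44 (25.0%), 6 higher and 5 lower in knockouts, against 17.3% of all genes tested.

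The type I and gamma-type genes differed in the direction of these separations, although not in a way that any test here addresses. Among 25 type I genes tested, 6 stood higher in all knockouts than in all controls and 0 stood lower (24.0% against 8.38% of all genes in the higher direction). Among 13 gamma-type genes, 0 stood higher and 3 lower (23.1% against 8.87% of all genes in the lower direction), and among 6 antigen presentation genes 0 stood higher and 2 lower. On the deposited FPKM values the type I count was 2 higher and 0 lower, against 4.42% of all genes higher and 15.7% lower on that scale. The gamma-type count was 0 and 3, with Irgm1 in place of Gbp9, and the antigen presentation count 0 and 2. Of the separated genes, Gbp2 and Gbp3 (gamma-type) and, on CPM, Parp14 (type I) are known to respond to both interferon types. Without 7 members taken as such, the median log2 fold change was 0.12 for type I genes and 0.20 for gamma-type genes. The 7 were chosen by hand, and other members may also respond to both types.

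Class medians stood close together. The median log2 fold change was 0.16 for type I genes (17 positive, 8 negative), 0.082 for gamma-type genes (7 positive, 6 negative) and 0.013 for antigen presentation genes (3 and 3), against -0.0037 over all 14109 genes. Without knockout 2 these medians were 0.029, -0.083 and -0.088. The gamma-type median was also negative without control 3 (-0.027) and without knockout 3 (-0.041). The antigen presentation median was negative without control 1 (-0.055) or control 2 (-0.018), with upper-quartile scaling (-0.0020) and on log2 of FPKM plus 1 (-0.053) or plus 0.1 (-0.058), so neither class had a settled direction. The type I median was also 0.029 on log2 of FPKM plus 1. Mean log2 CPM of the type I genes was 1.60, 1.80 and 1.63 across controls 1 to 3, against 1.98, 1.83 and 1.73 across knockouts 1 to 3, and knockout 3 lay below control 2. The corresponding gamma-type means were 2.74, 2.93 and 2.58 in controls and 2.62, 2.80 and 2.79 in knockouts, with the groups interleaved.

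**Figure D2:**
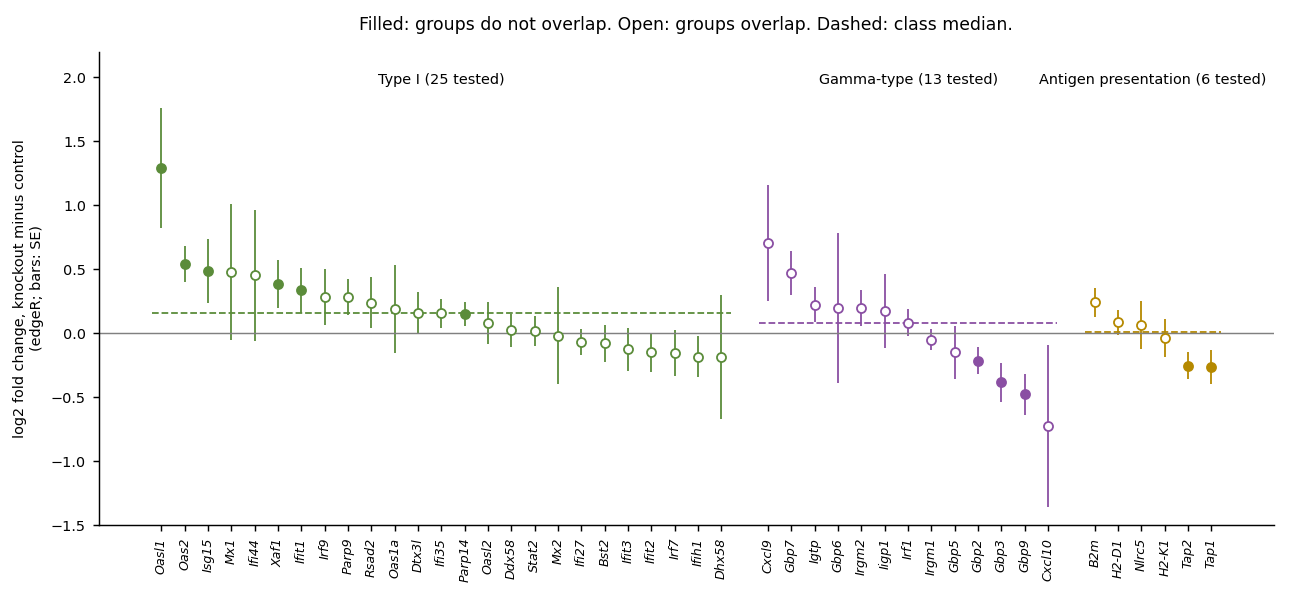
Log2 fold change (knockout minus control, edgeR, bars SE, n = 3 per group) of the 44 tested genes by class, in falling order; filled points mark genes whose groups do not overlap and dashed lines the class medians of 0.16, 0.082 and 0.013. All filled type I points lie above 0 and all filled gamma-type and antigen presentation points below it, and none passed the adjusted threshold.

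Among the type I genes, the groups overlapped for all sensors and transcription factors. Ddx58, which encodes RIG-I, stood at 6.92, 8.06 and 6.19 CPM in controls against 7.18, 7.43 and 6.88 CPM in knockouts (log2 fold change 0.02, 95% interval -0.28 to 0.33). The other RNA sensor Ifih1 (MDA5) stood at -0.18 and the regulator Dhx58 (LGP2) at -0.19. Stat2 was at 0.02 (95% interval -0.25 to 0.28), its partner Irf9 at 0.28 and Irf7, which amplifies type I interferon production, at -0.16. For Ddx58 and Stat2 the intervals leave room for differences of up to about 0.3 log2 units either way.

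The antiviral 2′-5′ oligoadenylate synthetase family, whose active members make the activator of RNase L, held both genes of the class with an unadjusted p under 0.05. Oas2 (chromosome 5, 120730333 to 120749886) stood at 3.89, 4.37 and 3.77 CPM in controls against 6.50, 5.71 and 5.26 CPM in knockouts (log2 fold change 0.54, SE 0.14, edgeR adjusted p = 0.305). All 3 knockout libraries lay above all controls. Oasl1, a family member without synthetase activity that restrains Irf7 translation, was near the limit of counting, at 0.239, 0.293 and 0.181 CPM in controls against 0.905, 0.476 and 0.365 CPM in knockouts (1.29, SE 0.47, adjusted p = 0.382). Its knockout values were higher but uneven, with knockout 1 well above the others, and without knockout 1 the fold change was 0.81. Oasl2 (0.08) and Oas1a (0.19) overlapped between groups. Oas3 had 0, 8 and 3 counts in controls and 28, 0 and 6 in knockouts, too few for a fold. Of the distinct 50-base stretches in Oas1a transcripts, 57.6% also occur in Oas1g, so the reads of these 2 genes may be divided between them, whereas Oas2 and Oasl1 shared 0 such stretches with another gene.

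Isg15, the ubiquitin-like protein that is conjugated to other proteins under interferon, stood at 1.16, 1.05 and 0.908 CPM in controls against 1.70, 1.47 and 1.19 CPM in knockouts (log2 fold change 0.49, SE 0.25, edgeR adjusted p = 0.509). Ifit1, which binds foreign 5′ RNA ends, stood at 2.65, 2.22 and 2.44 CPM and 3.39, 3.13 and 2.68 CPM (0.33, SE 0.17, adjusted p = 0.509). In both, knockout 3 lay just above the highest control, and on the FPKM scale the groups overlapped. The relatives Ifit2 (-0.15) and Ifit3 (-0.13), also in the chromosome 19 cluster, overlapped between groups and had negative fold changes, so the IFIT genes were not of 1 sign. Ifit3 shares 51.2% of its 50-base stretches with Ifit3b.

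Xaf1, an interferon-induced antagonist of an apoptosis inhibitor, stood at 2.69, 2.62 and 2.28 CPM in controls against 2.99, 2.91 and 4.02 CPM in knockouts (log2 fold change 0.38, SE 0.19, edgeR adjusted p = 0.489). Knockout 3 was highest, without it the fold change was 0.22, and on the FPKM scale the groups overlapped. Parp14, an ADP-ribosyltransferase, stood at 10.2, 11.3 and 10.3 CPM and 12.4, 11.5 and 11.4 CPM (0.15, SE 0.0945, adjusted p = 0.580). Its 2 chromosome 16 neighbours Parp9 (0.28) and Dtx3l (0.16), whose products form an E3 ligase complex, overlapped between groups. The separation in Parp14 was narrow, since control 2 lay at 11.3 CPM and knockout 3 at 11.4 CPM. On the FPKM scale the Parp14 groups overlapped.

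The 3 most abundant type I genes overlapped between groups. Ifi27 stood at 18.1, 18.2 and 21.8 CPM in controls against 19.2, 18.3 and 17.9 CPM in knockouts (log2 fold change -0.07, 95% interval -0.30 to 0.16). Bst2, or tetherin, which holds budding virus at the cell surface, stood at 8.50, 6.72 and 8.99 CPM and 8.14, 7.87 and 6.88 CPM (-0.08, 95% interval -0.41 to 0.26). Ifi35 stood at 12.0, 13.0 and 14.5 CPM and 15.8, 15.1 and 13.2 CPM (0.16, 95% interval -0.11 to 0.42). The dynamin-like GTPases Mx1 (0.48) and Mx2 (-0.02) and the gene Ifi44 (0.45) were each at most 1.37 CPM in every library, and the intervals of their fold changes spanned 0. Rsad2, or viperin, ran from 4.16 CPM in control 3 to 7.12 CPM in knockout 2, which lay above the other 5 libraries (0.24).

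**Figure D3:**
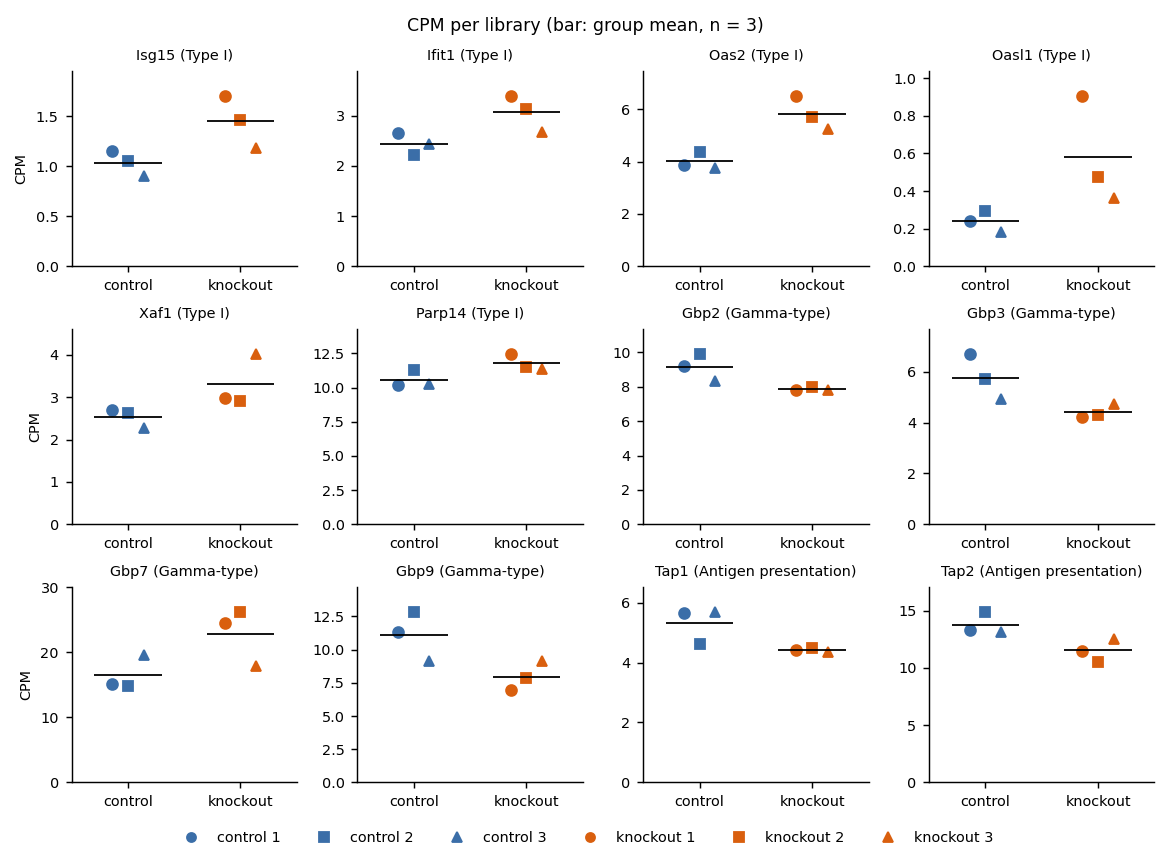
CPM in each library (axes start at 0, bars are group means, n = 3) of the 12 genes with an unadjusted p under 0.05 or without overlap between groups. The 6 type I genes stand higher in knockouts, Gbp2, Gbp3, Gbp9, Tap1 and Tap2 stand lower, and Gbp7 overlaps because knockout 3 (17.9 CPM) lies under control 3 (19.6 CPM).

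The gamma-type class is led by guanylate-binding proteins (GBPs), large GTPases that coat intracellular pathogens and their vacuoles. Of its 6 GBPs, 4 lie on chromosome 3 (142496934 to 142638008) and the others, Gbp9 and Gbp6, in a second cluster on chromosome 5. Gbp9 stood at 11.3, 12.8 and 9.15 CPM in controls against 6.99, 7.83 and 9.11 CPM in knockouts (log2 fold change -0.48, SE 0.16, edgeR adjusted p = 0.363). Gbp3 stood at 6.68, 5.70 and 4.92 CPM and 4.22, 4.28 and 4.75 CPM (-0.38, SE 0.15, adjusted p = 0.399). Gbp2 stood at 9.23, 9.89 and 8.35 CPM and 7.82, 8.01 and 7.83 CPM (-0.22, SE 0.11, adjusted p = 0.489). For all 3 the knockout values lay below the lowest control. The margin was narrow for Gbp9 and Gbp3, where control 3 lay just above knockout 3. On the FPKM scale the Gbp9 groups overlapped.

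Gbp7, between Gbp5 and Gbp3 on chromosome 3, had the opposite sign, at 15.1, 14.8 and 19.6 CPM in controls against 24.4, 26.1 and 17.9 CPM in knockouts (log2 fold change 0.47, SE 0.17, edgeR adjusted p = 0.383). Knockouts 1 and 2 lay above all controls and knockout 3 did not. Gbp5, in the same cluster, was at -0.15 and overlapped. Gbp3 and Gbp7 share 3.75% of Gbp3's 50-base stretches, and the ISRE and GAS letters in their promoters are printed above. Of Gbp7's own stretches 12.7% occur in other genes, with the largest share in Gm43802 (10.5%), so part of its reads may be misassigned.

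Gbp6 varied most within groups among the 44 tested genes. It stood at 29.2, 35.4 and 7.70 CPM in controls against 18.4, 17.1 and 47.4 CPM in knockouts, a 6.15-fold range (log2 fold change 0.20, SE 0.58, edgeR adjusted p = 0.926). Its within-group SD of 1.02 log2 units was larger than that of 97.3% of genes tested, against a median of 0.18 over all genes. Gbp10, a neighbour on chromosome 5 outside the 45, stood at 27.0, 37.5 and 5.78 CPM in controls against 9.88, 14.5 and 46.1 CPM in knockouts. Of Gbp10's 50-base stretches 73.3% also occur in Gbp6. Of Gbp6's own stretches 70.65% occur in other genes, with the largest share in Gm43302 (65.0%). Reads of Gbp6 and Gbp10 therefore cannot be assigned with certainty. Control 3 was lowest and knockout 3 highest for both Gbp6 and Gbp10. The fibre gene Myh2 stood at 4460, 4711 and 1193 CPM in controls against 3243, 2182 and 4697 CPM in knockouts, also lowest in control 3 and high in control 1, control 2 and knockout 3. The part of fibre makeup in the Gbp6 values was not tested. Gbp10 and Myh2 were chosen after their values were seen.

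**Figure D4:**
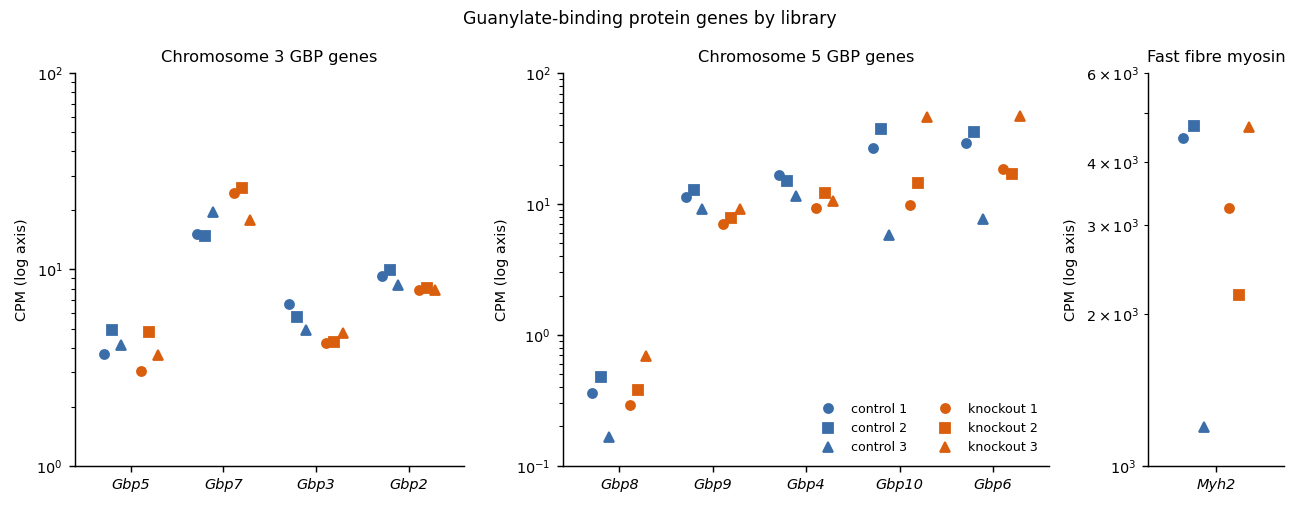
CPM (log axes) in each library of 4 GBP genes on chromosome 3 and 5 on chromosome 5, in order of position, with the fast oxidative fibre myosin Myh2. Gbp6 and Gbp10 spread over 6.15-fold and 7.98-fold with control 3 lowest and knockout 3 highest, while Gbp2, Gbp3 and Gbp9 lie lower in all knockouts.

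The immunity-related GTPases (IRGs), a further family acting on pathogen vacuoles, stood near 0 or above it. Irgm1, the most abundant of the class per length, stood at 14.9, 14.8 and 15.5 CPM in controls against 14.1, 15.2 and 14.4 CPM in knockouts (log2 fold change -0.05, 95% interval -0.24 to 0.14). Its within-group SD of 0.049 log2 units was larger than that of 2.91% of genes tested, so it was among the steadiest genes measured. Igtp (0.22) and Irgm2 (0.20), which share sequence, overlapped between groups. Iigp1 stood at 17.3 CPM in knockout 2 and between 8.05 and 11.1 CPM elsewhere (0.18).

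Irf1, the transcription factor that relays the gamma signal, stood at 12.5, 10.9 and 10.8 CPM in controls against 12.9, 11.1 and 12.2 CPM in knockouts (log2 fold change 0.08, 95% interval -0.17 to 0.33). The T cell-attracting chemokines were scarce. Cxcl9 stood at 1.78 CPM in knockout 2 and between 0.514 and 0.772 CPM in the other libraries (0.71, 95% interval -0.35 to 1.77). Cxcl10 stood at 0.239, 0.494 and 0.272 CPM in controls against 0.199, 0.0595 and 0.347 CPM in knockouts (-0.72, 95% interval -2.20 to 0.75). Their fold changes thus had opposite signs and intervals that both include 0.

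In the class I pathway, both peptide transporter genes stood lower in all knockouts, while the groups overlapped for the display molecules. TAP1 and TAP2 together carry peptides into the endoplasmic reticulum. Tap1 stood at 5.64, 4.62 and 5.67 CPM in controls against 4.43, 4.48 and 4.34 CPM in knockouts (log2 fold change -0.26, SE 0.13, edgeR adjusted p = 0.503). Tap2 stood at 13.3, 14.8 and 13.1 CPM and 11.5, 10.5 and 12.6 CPM (-0.25, SE 0.10, adjusted p = 0.413). Both subunits, neighbours on chromosome 17 (Tap1 34187556 to 34197225, Tap2 34204479 to 34216321), were lower in all 3 knockouts than in all controls, and neither passed the threshold.

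B2m stood at 96.3, 110.0 and 117 CPM in controls against 131, 138 and 113 CPM in knockouts (log2 fold change 0.24, SE 0.11, edgeR adjusted p = 0.461), with knockout 3 under control 3. H2-K1 stood at 73.0, 80.2 and 99.6 CPM and 85.3, 91.4 and 69.8 CPM (-0.04, 95% interval -0.38 to 0.30). H2-D1 stood at 102, 105 and 123 CPM and 117, 124 and 109 CPM (0.08, 95% interval -0.15 to 0.32). In all 3 genes control 3 was the highest control and knockout 3 the lowest knockout. H2-D1 and H2-K1 share 12.8% and 9.63% of their 50-base stretches with other genes, so a small part of their reads may be misassigned. The largest partners were the class I relatives H2-Q1 (5.87% for H2-D1) and H2-Q10 (5.18% for H2-K1). Nlrc5, the transactivator of class I genes, was at 0.06 and overlapped.

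Other genes of the pathway, from lists of 83 genes of which 72 were tested, also held none past the edgeR threshold. Below an unadjusted p of 0.05 lay 7 with positive and 3 with negative fold changes (13.9% against 11.6% of all genes). Of 10 ligand genes 2 were tested, Il12a at 2.27 to 5.75 CPM over the 6 libraries (log2 fold change -0.27) and Il18 at 0.459 to 0.967 CPM (0.19), and their groups overlapped. Ifnb1, Ifna1, Ifna2, Ifna4, Ifnl2 and Ifnl3 had 0 counts in all 6 libraries, which allows up to 3 counts or at most 0.0598 CPM in each, and Ifng had 4 counts in knockout 1 and 0 in the others. Of 8 receptor and kinase genes, 4 lay below an unadjusted p of 0.05, of which 3 stood higher and 1 lower, and the groups of these 4 did not overlap (4 of 8, against 17.3% of all genes). Jak1, the kinase shared by both branches, stood at 227, 217 and 251 CPM in controls against 323, 321 and 260 CPM in knockouts (log2 fold change 0.38, SE 0.11, adjusted p = 0.338). Ifngr1, the ligand-binding gamma receptor chain, stood at 46.6, 57.5 and 52.7 CPM and 66.9, 64.0 and 64.2 CPM (0.32, SE 0.0932, adjusted p = 0.343). The others, named after their values were seen, were Jak2 of the gamma branch (0.60, adjusted p = 0.348) and Tyk2 of the type I branch (-0.32, adjusted p = 0.351).

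Among 12 tested further type I targets, Ifi204, a DNA-binding member of the p200 family, stood at 5.54, 7.38 and 7.72 CPM in controls against 26.3, 17.9 and 11.3 CPM in knockouts (log2 fold change 1.42, SE 0.30, edgeR adjusted p = 0.241). It was the gene of these lists with the smallest p, and DESeq2's Wald test called it higher. It was the 1 gene so called of the 72 tested in these lists, against 1.52% of all genes. DESeq2 called 0 of the 72 lower, against 0.578% of all genes. Of the 12 type I targets 2 were without overlap (16.7% against 17.3% of all genes), 1 higher and 1 lower. Ifitm2 was at 0.38 (adjusted p = 0.384). Of 9 further gamma targets tested, 0 were without overlap, against 17.3% of all genes, and Gbp4 was at -0.43 and Irf8 at 0.26. In peptide processing the immunoproteasome subunit Psmb10 stood at 8.26, 8.27 and 8.88 CPM in controls against 7.52, 6.74 and 6.53 CPM in knockouts (-0.29, adjusted p = 0.385), and Pdia3 was at 0.45 (adjusted p = 0.391). All 6 further class I genes tested had negative fold changes, from -0.34 to -0.11, with 0 at an unadjusted p under 0.05, and H2-Q4 (-0.17) and H2-T22 (-0.28) had the smallest p. Sensing genes (median 0.13 over 10) and negative regulators (0.066 over 8) held 0 at an unadjusted p under 0.05, with Mb21d1 at 1.07 and Zbp1 at 1.08 in the former and Ptpn2 at 0.24 and Socs1 at -0.87 in the latter. MHC class II genes had a median of 0.12 over 7, with H2-DMb1 at 0.55 and H2-DMa at -0.18.

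Whole muscle holds leukocytes, vessels and fibroblasts besides fibres, and with bulk RNA fewer cells of a type cannot be told apart from less RNA per cell. Macrophage markers (13 of 13 tested) had 12 positive fold changes and a median of 0.38, and their summed level ran from 152 to 263 CPM in controls and from 162 to 267 CPM in knockouts. It was high in control 2, knockout 1 and knockout 3, and the mean log2 CPM of type I genes was highest in knockout 1, knockout 2 and control 2. The 8 T and natural killer cell markers summed to at most 0.712 CPM in any library, and Cd3d and Gzmb had 0 counts in all 6. The 4 B cell markers summed to at most 0.566 CPM. Neutrophil markers summed to between 0.232 and 0.499 CPM in controls and between 0.529 and 1.53 CPM in knockouts. The gap between the groups was smaller than the floor of 3 counts, which is 0.0548 CPM in knockout 3. Of the 4 markers 2 were tested, and 1 of these was without overlap, against 17.3% of all genes. Ly6g was at 0 in all 6 libraries. Dendritic cell markers summed to at most 2.14 CPM. Fibroblast markers summed to between 1622 and 2480 CPM in controls and between 2480 and 2971 CPM in knockouts, and all 8 had positive fold changes (0 of 8 called by edgeR against 0.0567% of all genes, and 2 of 8 called higher by DESeq2 against 1.52%). Endothelial markers summed to between 372 and 461 CPM in controls and between 394 and 436 CPM in knockouts. The part of these cells in the values of the type I, gamma-type and antigen presentation genes was not tested.

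**Figure D5:**
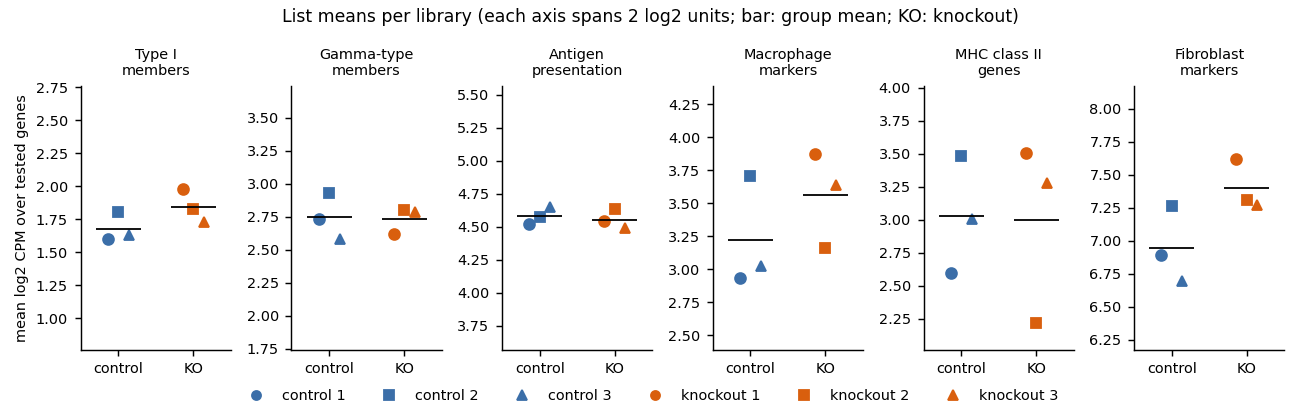
Mean log2 CPM per library over the tested genes of each class and of 3 other lists (every axis spans the same width, bars are group means). Type I means lie at 1.60 to 1.80 in controls and 1.73 to 1.98 in knockouts, gamma-type and antigen presentation means are interleaved, and macrophage and class II means are high in control 2, knockout 1 and knockout 3.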

How the data were processed

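The labels' protocols describe muscle stored in RNAlater, Trizol extraction and a TruSeq Stranded mRNA library for each mouse. The deposited read counts per gene, so named in the file headers, are unnormalized integers. The authors' FPKM and TPM columns, per the file headers, are scaled for length and depth; FPKM served as an alternative, and TPM was not used. The submitters' processing notes name StringTie 1.3.4d, Bowtie2 2.3.4.1, FastQC 0.11.7 and bcl2fastq 2.20.0, with build mm10. For their roles, the counting mode and the use of strand, the sources used here give no statement.

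The counts were tested with edgeR 4.0.16 (R 4.3.3): filterByExpr with a minimum count of 10, TMM scaling, quasi-likelihood test, Benjamini-Hochberg adjustment over 14109 genes, threshold 0.05. The test was checked on simulated data. Standard errors come from the F statistic, CPM values carry the TMM factors, and a prior count of 2 entered log2 CPM. A floor of 3 counts covers counting error only. Genes without overlap have all 3 values of 1 group above the other's. The labels do not say which mice were litter mates, and p-values reflect only the spread among these 6 libraries. Chi-square comparisons of counts were run between libraries of the same group only. Each such pair differed by more than counting error, at 33.6 to 199.5 per degree of freedom. The members, their classes and the lists were chosen with earlier results of these data known. Values in every library are given for members with an unadjusted p under 0.05 or without overlap and the 3 most abundant per class. Ddx58, Oas3 and Cxcl10 are given in every library besides these. By rule, the 2 genes with the smallest p are named from each other pathway list. Beyond that rule, further ligand genes, Jak2, Tyk2 and Gbp10 are named, and Gbp8 is drawn in a figure. Shares of 50-base stretches were computed from GENCODE M21 transcripts. One listed gene, Rnf213, was not analysed here. Alternatives were RLE and upper-quartile scaling, no filter, a filter of 1 CPM, DESeq2 1.42.0, limma-voom and limma 3.58.1 on log2 of FPKM plus 1 or 0.1, a replicate term, other class assignments, an adjusted p under 0.10 and leaving out each library. Same-numbered libraries were not paired by the labels.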

Additional observations from a re-analysis of the deposited data

How the results depend on the processing

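The count of 0 called members held in all 16 alternatives run. The count over all genes, 8, was 290 with DESeq2, 5 with limma-voom, 1 with FPKM plus 1 and 1 with FPKM plus 0.1, and ran from 1 (without control 3) to 141 (without knockout 3). With the replicate number as a block it was 0, and the members at an unadjusted p under 0.05 were 2 in place of 6. The deviations of same-numbered libraries correlated at -0.0082, -0.19 and -0.098, and those of other pairs at -0.084 to 0.18. These values show no pairing by number, but with 3 libraries per group they cannot exclude it. Without single libraries the members at an unadjusted p under 0.05 ran from 1 (without knockout 1) to 9 (without knockout 3); they were 2 without control 1 and 3 without knockout 2. Members without overlap were 7 with FPKM plus 1 and 7 with FPKM plus 0.1, and ran from 12 to 18 without single libraries, as fewer samples overlap less often. The type I median was 0.029 with FPKM plus 1, and ran from 0.029 to 0.20 without single libraries. The gamma-type median ran from -0.083 to 0.11, and the antigen presentation median from -0.088 to 0.070 and was -0.058 with FPKM plus 0.1. The median over all genes was -0.047 with FPKM plus 1 and -0.070 with FPKM plus 0.1. Leaving out 7 members known to respond to both interferon types gave medians of 0.12 for type I and 0.20 for gamma-type genes. Those 7, chosen by hand and not a complete list, were Irf1, Cxcl10, Parp9, Parp14, Dtx3l, Gbp2 and Gbp3. The 12 genes shown by library kept the sign of their fold change in every alternative that gave a value, and their adjusted p was 0.0621 or more. The block gives no value for overlap, and the filter of 1 CPM none for Oasl1.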
